A study of Mus musculus with 8 samples.

Results

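A set of 7 genes used to recognise mesothelial cells, Msln, Upk3b, Upk1b, Wt1, Lrrn4, Bnc1 and Gpm6a, were examined in pancreatic tumors grown in mice with and without complement component C3. They were taken by gene name from the deposited table, which held all 7 among 29968 genes, and all 7 passed the filter that left 16610 genes for testing. The RNA came from 8 whole tumors of male mice, 4 from wild-type C57BL/6J hosts (WT) and 4 from C3-/- hosts. The mice had been obtained at 12 weeks of age, and each had received 250000 KPC cells in 50 µL of PBS in the pancreas. KPC cells are mouse pancreatic cancer cells from a genetically engineered tumor model driven by Pdx-1-Cre, and the study's methods name 1 line, FC1245, for all hosts. The injected cells carry an intact C3 gene, so that C3 is missing from host cells alone, the mesothelium included. Nothing in the labels tied same-numbered tumors of the 2 genotypes to each other.

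Mesothelial cells form the thin epithelium that covers the pancreas, spleen, gut and the wall of the peritoneal cavity. They secrete lubricants and matrix, express keratins together with mesodermal transcription factors, and can take on a fibroblast-like state. In pancreatic cancer they are one proposed source of the antigen-presenting fibroblasts that carry MHC class II. Of the 7 genes, Msln encodes mesothelin, a surface glycoprotein that pancreatic cancer cells can also make. Upk3b and Upk1b encode uroplakins, membrane proteins best known from the bladder lining. Wt1 and Bnc1 encode zinc finger transcription factors, Lrrn4 a leucine-rich repeat membrane protein, and Gpm6a a membrane glycoprotein that neurons express as well. In bulk tumor RNA, fewer cells of a type and less RNA per cell cannot be told apart.

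The 250 bases before the start site of the canonical transcript (GRCm39, GENCODE vM39) are shown for the 3 members with the smallest p-values between genotypes and for Msln. The first 3 hold a match to GGAATG, the core letters bound by TEAD factors, and Msln does not. Capitals mark the match, read as CATTCC where it lies on the other strand. The windows are chr5:136067100-136067349 on the + strand for Upk3b, chr2:132722828-132723077 on the - strand for Lrrn4, chr16:38620728-38620977 on the - strand for Upk1b and chr17:25973433-25973682 on the - strand for Msln.
Upk3b: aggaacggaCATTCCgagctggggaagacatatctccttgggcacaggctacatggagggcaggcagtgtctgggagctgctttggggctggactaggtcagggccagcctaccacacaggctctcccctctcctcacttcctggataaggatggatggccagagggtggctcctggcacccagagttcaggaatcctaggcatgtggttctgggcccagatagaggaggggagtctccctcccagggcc
Lrrn4: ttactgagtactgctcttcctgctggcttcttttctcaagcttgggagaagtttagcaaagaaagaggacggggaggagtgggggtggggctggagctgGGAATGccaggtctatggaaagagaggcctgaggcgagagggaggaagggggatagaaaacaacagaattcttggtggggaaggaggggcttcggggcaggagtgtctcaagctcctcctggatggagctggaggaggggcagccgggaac
Upk1b: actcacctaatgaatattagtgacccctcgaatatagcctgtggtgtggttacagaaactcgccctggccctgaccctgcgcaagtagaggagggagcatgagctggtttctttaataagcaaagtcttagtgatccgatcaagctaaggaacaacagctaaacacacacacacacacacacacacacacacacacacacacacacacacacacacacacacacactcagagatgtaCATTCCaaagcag
Msln: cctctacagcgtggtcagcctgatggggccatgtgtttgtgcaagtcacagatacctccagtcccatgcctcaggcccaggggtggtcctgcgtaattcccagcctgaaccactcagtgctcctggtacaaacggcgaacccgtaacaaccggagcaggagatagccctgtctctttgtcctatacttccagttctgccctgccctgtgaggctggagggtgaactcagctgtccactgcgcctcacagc
The match began 241 bases before the start site in Upk3b, 151 in Lrrn4 and 13 in Upk1b. None of the other 4 members held it, Msln included, and 12.1% of 21770 promoters of the same length did. AGATAA, the letters bound by GATA factors, occurred in 9.6% of promoters and among the members in Wt1 alone, at 2 places. The WT1/EGR letters GCGTGGGCG or GCGGGGGCG, found in 2.9% of promoters, were in none of the 7. Both strands were searched, and a match describes letters, not a bound site.

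Depth was 13266029 to 23354212 counts per tumor in WT and 15453897 to 22293561 in C3-/-. C3 itself was measured at 210 to 426 CPM (counts scaled to the size of each library) in WT tumors and at 100 to 134 in C3-/- tumors, with no overlap. Its difference was -1.42 (SE 0.23) on the log2 scale, with an edgeR adjusted p of 0.933. Pancreatic acinar genes were uneven between tumors and are given below beside the members.

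Msln stood far above the other members in level. Compared per length, with the FPKM values of the authors, Msln averaged 160 over the 8 tumors and lay above 98.5% of the genes tested. Wt1 followed at 1.56 FPKM, Upk1b at 1.28 and Upk3b at 0.765. Gpm6a at 0.459, Lrrn4 at 0.452 and Bnc1 at 0.442 FPKM closed the order, above 9.9%, 9.77% and 9.48% of the genes tested. The mean FPKM of Msln was 103 times that of Wt1 and 362 times that of Bnc1.

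**Figure D1:**
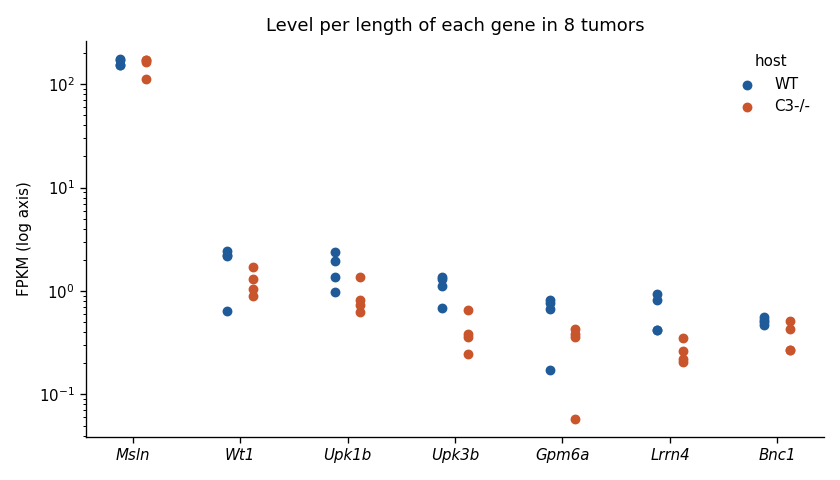
FPKM of each gene (log axis) in each of 4 WT and 4 C3-/- tumors, 1 point per tumor. Msln lies between 113 and 177 FPKM, and no other member passes 2.46 FPKM.

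The order was not firm below Msln. Msln exceeded Wt1, and Upk1b exceeded Upk3b, in 8 of 8 tumors. Wt1 exceeded Upk1b in 6 tumors, and Upk3b exceeded Gpm6a in 6. Gpm6a exceeded Lrrn4 in 5 tumors and Lrrn4 exceeded Bnc1 in 2, so these neighbours did not differ beyond their spread.

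The comparison of host genotypes asks whether transcripts of the mesothelium differ when the host lacks C3. All 7 members had a lower mean in C3-/- tumors, as 50.0% of all genes tested had a negative log2 fold change. No member passed an adjusted p of 0.05 in edgeR, nor did any other gene (0%). At an unadjusted p below 0.05, 3 of the 7 were lower in C3-/- tumors, Upk3b, Lrrn4 and Upk1b, against 2.07% of all genes lower and 3.03% higher. DESeq2 gave the same 3 at this level, against 1.73% of its genes, and called 16 genes in all, none of them a member. The groups did not overlap for Upk3b and Lrrn4, against 1.45% of genes with that pattern. The median log2 fold change was -0.91 over the 7 members, -0.93 without Msln and 0.00 over all genes tested.

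Of the uroplakins, Upk3b had the smallest p of the members. Its level was 2.43, 4.67, 3.99 and 4.85 CPM in the WT tumors and 2.34, 1.29, 0.883 and 1.37 CPM in the C3-/- tumors. Every WT tumor lay above every C3-/- tumor, though WT replicate 1 and C3-/- replicate 1 nearly met. The means were 3.99 ± 1.1 and 1.47 ± 0.618 CPM (SD, n = 4 each), so that C3-/- tumors held 36.9% of the WT level. The log2 fold change was -1.43 (SE 0.36, 95% confidence interval -2.22 to -0.63), with an unadjusted p of 0.0025 and an adjusted p of 0.933 in edgeR. DESeq2 gave an adjusted p of 0.104, and the exact two-sided permutation test gave p = 0.0286, the smallest that 4 against 4 tumors allow. The values rested on 39 to 114 counts per WT tumor and 14 to 50 per C3-/- tumor.

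Upk1b, the other uroplakin, was at 2.05, 4.07, 2.86 and 5.06 CPM in WT and at 1.54, 1.74, 1.32 and 2.90 CPM in C3-/- tumors. The groups overlapped, since C3-/- replicate 4 lay above WT replicates 1 and 3. The difference was -0.91 (SE 0.37) on the log2 scale, with an unadjusted edgeR p of 0.032, an adjusted p of 0.971 and an exact permutation p of 0.0857. With 1 tumor left out at a time the unadjusted p in edgeR ran from 0.0106 to 0.116, an adjusted p of 0.486 being the lowest. Among other uroplakins, Upk1a, which pairs with Upk2 in the bladder lining, was at 0.81 ± 0.243 CPM in WT and 0.839 ± 0.333 CPM in C3-/- tumors (SD, n = 4 each). Upk2 had at most 2 counts in any tumor, and the deposited table held no row named Upk3a.

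Lrrn4 showed the other separation. Its WT values were 1.55, 3.47, 1.58 and 3.06 CPM, and its C3-/- values 0.983, 0.784, 0.819 and 1.31 CPM. The lowest WT tumor lay above the highest C3-/- tumor by a narrow margin. The means were 2.42 ± 0.993 and 0.975 ± 0.241 CPM (SD, n = 4 each). The log2 fold change was -1.30 (SE 0.37, 95% confidence interval -2.13 to -0.47), with an unadjusted edgeR p of 0.00563. Adjustment gave 0.933 in edgeR, and DESeq2 gave an adjusted p of 0.345. The exact permutation p was again 0.0286. These levels came from 21 to 72 counts per WT tumor and 13 to 24 per C3-/- tumor.

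**Figure D2:**
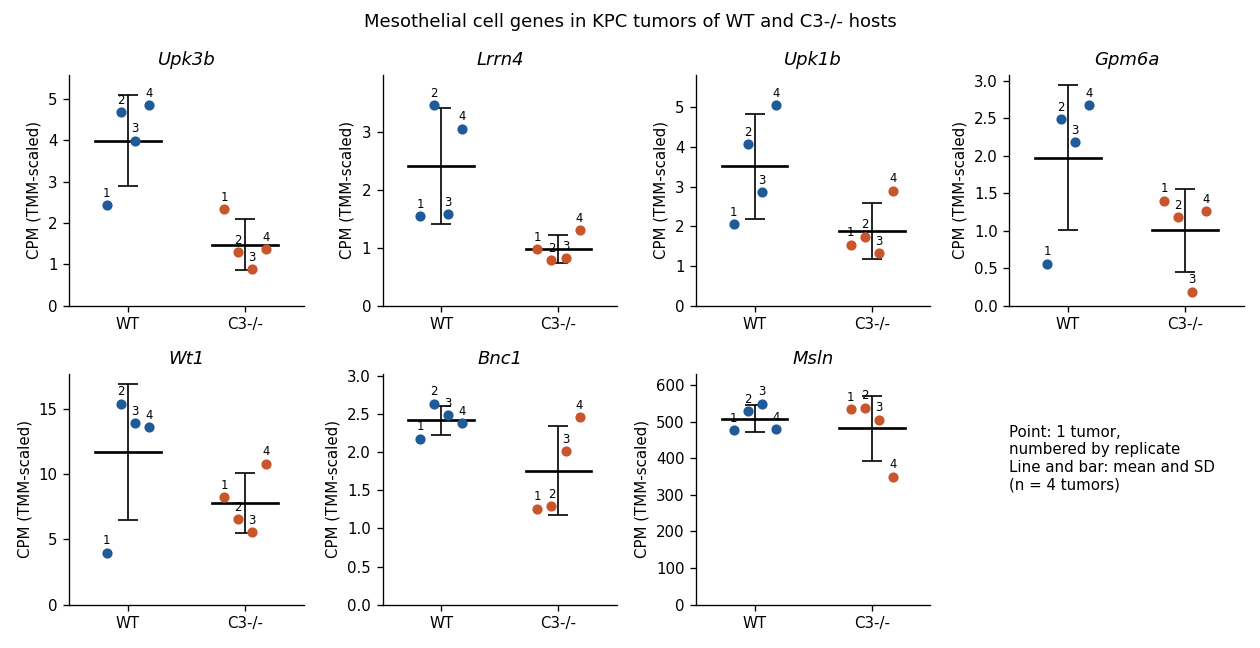
CPM of each member in 4 WT and 4 C3-/- tumors; points are tumors numbered by replicate, and lines and bars are the mean and SD. Upk3b and Lrrn4 separate the groups, WT replicate 1 is low for Wt1 (3.98 CPM) and Gpm6a (0.56 CPM), and Msln is lowest in C3-/- replicate 4 (350 CPM).

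Estimates for the transcription factors lay nearer 0. Wt1 was at 3.98, 15.4, 13.9 and 13.6 CPM in WT and at 8.24, 6.55, 5.55 and 10.8 CPM in C3-/- tumors. WT replicates 2, 3 and 4 lay above all C3-/- tumors, but WT replicate 1 was the lowest of the 8. Its log2 fold change was -0.59 (SE 0.38, edgeR adjusted p = 0.992). With 1 tumor left out at a time the difference ran from -0.43 without WT replicate 2 (unadjusted p of 0.326, adjusted p of 0.982 in edgeR) to -0.88 without WT replicate 1 (unadjusted p of 0.00665, adjusted p of 0.995 in edgeR).

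Bnc1 was at 2.18, 2.64, 2.49 and 2.38 CPM in WT tumors, the most even of the members other than Msln. In C3-/- tumors it was at 1.26, 1.29, 2.02 and 2.46 CPM, with replicate 4 inside the WT range. The log2 fold change was -0.46 (SE 0.30, edgeR adjusted p = 0.992).

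Gpm6a, the last of the membrane proteins, was at 0.56, 2.49, 2.18 and 2.68 CPM in WT and at 1.40, 1.18, 0.189 and 1.26 CPM in C3-/- tumors. The lowest C3-/- value stood on 3 counts and the lowest WT value on 9, so counting error is large for both. The log2 fold change of -0.96 had an SE of 0.59 and an edgeR adjusted p of 0.99. With 1 tumor left out at a time it ran from -0.63 without C3-/- replicate 3, the tumor with 3 counts (unadjusted p of 0.239, adjusted p of 1 in edgeR), to -1.27 without WT replicate 1 (unadjusted p of 0.0402, adjusted p of 0.995 in edgeR).

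Msln had 476, 529, 549 and 480 CPM in WT and 534, 538, 505 and 350 CPM in C3-/- tumors. C3-/- replicates 1, 2 and 3 lay within the WT range, and replicate 4 lay below it. The means were 509 ± 36.3 and 482 ± 89.1 CPM (SD, n = 4 each). The log2 fold change was -0.08 (SE 0.16, edgeR adjusted p = 0.999), and its 95% confidence interval allowed a C3-/- level from 0.744 to 1.21 times that of WT. With 6400 to 11412 counts per tumor, counting error was small for Msln.

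**Figure D3:**
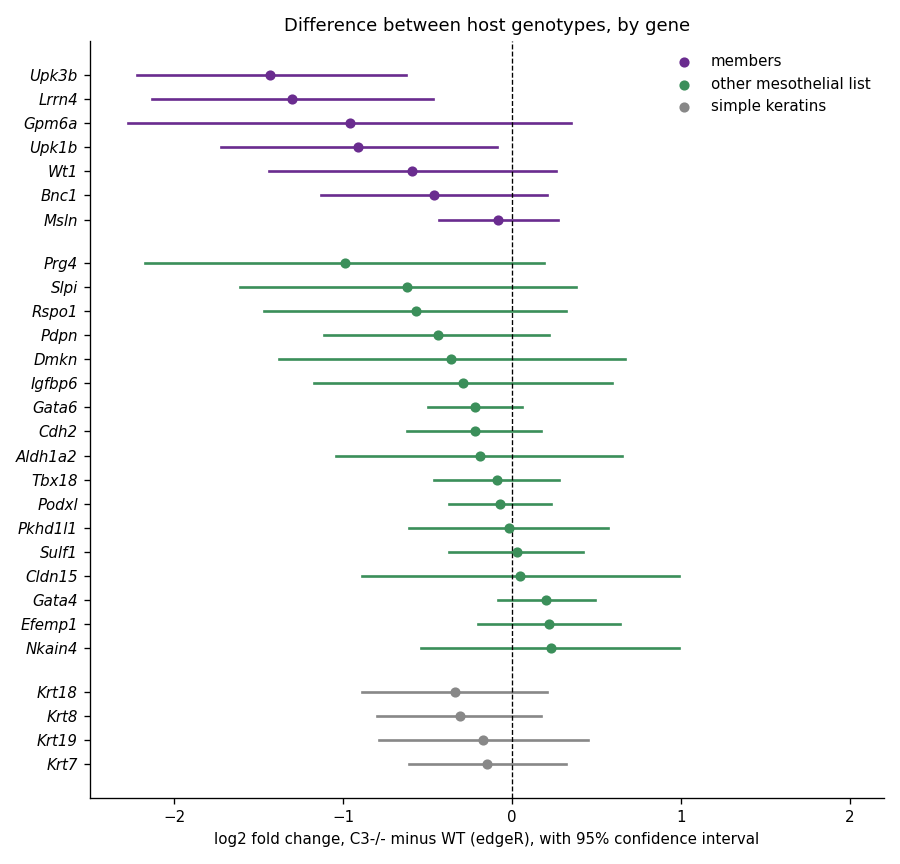
Log2 fold change (C3-/- minus WT, edgeR) with its 95% confidence interval for the 7 members, the 17 tested genes of the other mesothelial list and 4 simple keratins. The unadjusted intervals of Upk3b, Lrrn4 and Upk1b lie below 0, and those of all other genes shown include 0.

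The tumors were ordered much alike by the 6 members other than Msln. WT replicates 2, 3 and 4 were among the upper 4 tumors for 6 of the 6 genes, and C3-/- replicates 2 and 3 for 0. WT replicate 1 was there for 2 genes and C3-/- replicate 4 for 3. The summed level of the 6 genes was 12.7, 32.7, 27 and 31.7 CPM in WT and 15.8, 12.8, 10.8 and 20.1 CPM in C3-/- tumors. WT replicate 1 thus lay among the C3-/- tumors. Over the 15 pairs of these genes, Pearson's r of log2 CPM across the 8 tumors ran from 0.21 (Gpm6a and Bnc1) to 0.92 (Lrrn4 and Upk1b), with a median of 0.71. As deviations from the mean of their own genotype, the same pairs ran from -0.28 to 0.87, with a median of 0.55. The points share libraries and the genotype difference, and at these counts the correlations are descriptions.

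No relation of Msln to the other members was detected over these tumors. Its r was 0.30 with Upk3b, -0.02 with Lrrn4, -0.20 with Upk1b, 0.09 with Gpm6a, -0.01 with Wt1 and -0.36 with Bnc1. Spearman's rho was 0.00, -0.14, -0.29, 0.19, 0.29 and -0.12 in the same order. The exact permutation p, adjusted over these 6 relations, was 0.981 for each r, and at least 0.952 for each rho. Without the 2 tumors farthest from the median of the other gene, r lay between -0.28 and 0.52. Within genotypes it ran from -0.71 with Bnc1, for which the exact permutation p was 0.0442 before and 0.265 after adjustment, to 0.17 with Upk3b.

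A direct test of the difference used each member's log2 ratio to Msln in the same tumor, and was added after the members' values had been seen. The ratio of Upk3b to Msln was lower in C3-/- than in WT tumors by a mean of 1.31 on the log2 scale. Its exact permutation p was 0.0286, and 0.171 after adjustment over the 6 ratios. For Lrrn4 the ratio differed by -1.06 with an exact permutation p of 0.0857, and for the other 4 by -0.36 to -0.85 with exact permutation p-values from 0.171 to 0.486. With 4 against 4 tumors and 6 ratios, a ratio at the smallest exact permutation p alone has an adjusted p of 0.171, so a single ratio could not pass and the adjusted values say nothing for or against a difference.

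Msln was next set beside epithelial genes, which the KPC cells and the pancreatic ducts can express. This comparison was added after the values of Msln had been seen. With 14 keratin, junction and other epithelial genes, r ran from 0.30 (Grhl2) to 0.77 (Muc1), with a median of 0.60. The share of all genes with a positive r to Msln was not computed. The 14 genes share libraries and are not separate results, and mesothelial cells also express the simple keratins among them. For Muc1, an epithelial mucin, rho was 0.76, and the exact permutation p of r and of rho was 0.00942 and 0.0368 before and 0.0924 and 0.257 after adjustment over the 14. For Krt7, a simple epithelial keratin, r was 0.74 and rho 0.67, with exact permutation p-values of 0.0132 and 0.0831 and adjusted ones of 0.0924 and 0.291. Without the 2 tumors farthest from the median of each gene, r was 0.59 for Muc1 and 0.46 for Krt7. Over the 14 genes it then ran from -0.04 to 0.70. C3-/- replicate 4, the lowest tumor for Msln, was also the lowest for 10 of the 14 genes, and without it r was 0.72 for Muc1, 0.61 for Krt7 and -0.01 for Cdh1. None of the 14 passed after adjustment.

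**Figure D4:**
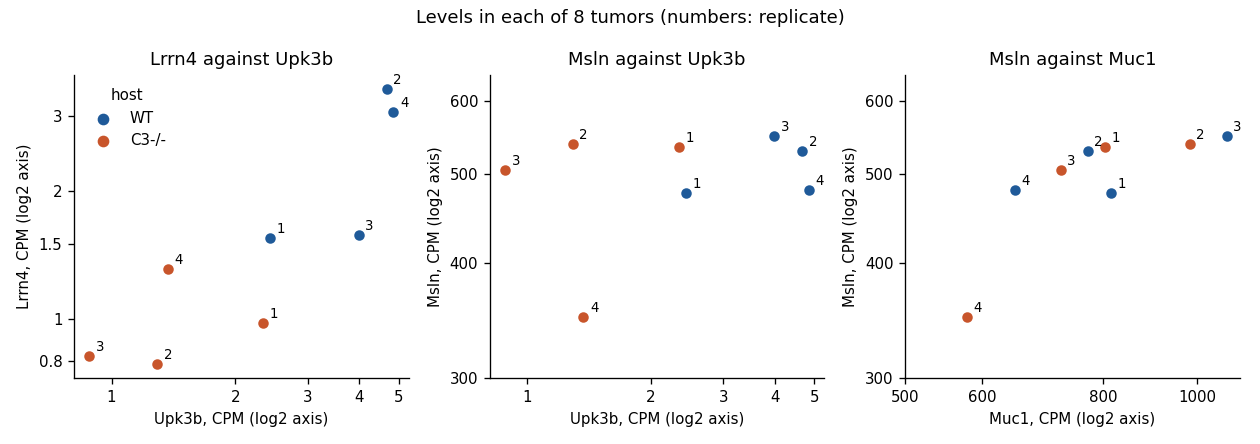
CPM in each of the 8 tumors on log2 axes, numbered by replicate and coloured by host: Lrrn4 against Upk3b, Msln against Upk3b, and Msln against Muc1. Lrrn4 climbs with Upk3b (r = 0.86), Msln shows little relation to Upk3b (r = 0.30), and Msln climbs with Muc1 (r = 0.77, adjusted exact permutation p = 0.0924).

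Other genes of mesothelial cells had a median difference nearer 0. Of a list of 20, all in the table, 17 were tested, 12 with a lower and 5 with a higher mean in C3-/- tumors. None had an unadjusted p below 0.05, and the median log2 fold change was -0.19. The largest difference was that of Prg4, which encodes the lubricant lubricin, at 24.2 ± 20.5 CPM in WT and 12.2 ± 6.22 CPM in C3-/- tumors (SD, n = 4 each), where WT replicate 4 alone reached 54.4 CPM. Rspo1, a Wnt agonist, was at 2.18 ± 0.667 and 1.45 ± 0.743 CPM. Aldh1a2, which makes retinoic acid, was at 30.7 ± 14.1 and 26.8 ± 12.2 CPM. Nkain4 had the higher mean in C3-/- tumors, 5.7 ± 2.44 against 4.89 ± 1.55 CPM (log2 fold change 0.23, SE 0.34). Calb2, which encodes the mesothelial marker calretinin, and Muc16, the mucin that binds mesothelin, did not pass the filter. Calb2 had 0 to 39 counts per tumor and Muc16 1 to 27. The simple keratins, which mesothelial and cancer cells both express, had a median of -0.24, with 4 of 4 lower and none past the test. Krt19 was at 1120 ± 289 CPM in WT and 995 ± 385 CPM in C3-/- tumors.

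The markers of antigen-presenting fibroblasts were on the other side of 0 in part, with 4 of 6 higher in C3-/- tumors. Cd74, the invariant chain of MHC class II, was at 78.7 ± 40.5 CPM in WT and 167 ± 81.1 CPM in C3-/- tumors (log2 fold change 1.09, SE 0.44, edgeR adjusted p = 0.971). H2-Aa, H2-Eb1 and H2-Ab1, MHC class II chains, differed by 1.05, 0.96 and 0.86. The unadjusted edgeR p was 0.0338 for Cd74, 0.0244 for H2-Aa, 0.0374 for H2-Eb1 and 0.0525 for H2-Ab1. Of all genes tested, 3.03% were higher in C3-/- tumors at an unadjusted p below 0.05. The groups overlapped for Cd74, and B cells, macrophages and dendritic cells express the same genes. Saa3, an acute-phase protein, had the lower mean in C3-/- tumors, 66.9 ± 39.3 against 106 ± 68.2 CPM. Among 12 genes of the transition to a mesenchymal state, 6 were higher and 6 lower, none with an unadjusted p below 0.05 (median 0.01). Fn1 (fibronectin) differed by 0.01 and Vim (vimentin) by -0.35. Of 10 fibroblast genes 8 were lower and 2 higher, none with an unadjusted p below 0.05 (median -0.12), with Col1a1 at -0.29 and Col3a1 at -0.19. Of 10 epithelial genes 10 were lower (median -0.17), with Cdh1 at -0.07 and Muc1 at -0.10.

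Other cell types that express members were looked for with their own markers. Of the markers of podocytes, which express Wt1, Nphs1 had at most 9 counts in any tumor, and Cdh16 and Synpo had higher means in C3-/- tumors (0.71 and 0.26). Of squamous markers, which bear on Bnc1, Krt5 had at most 2 counts, and of the 4 tested 2 were lower and 2 higher (median -0.09), with Ivl at -0.29, Krt14 at -0.82 and Krt13 at 0.31. Of 6 neuronal markers, which bear on Gpm6a, Elavl3 and Syt1 had at most 3 counts, and the deposited table held no row named Elavl4. Tubb3 and Stmn2 differed by -0.32 and -0.63. The summed level of the neuronal list was 35.2 to 90.9 CPM in WT and 44.2 to 58.5 CPM in C3-/- tumors. The bladder keratin Krt20, also expressed by pancreatic cancer cells, was at 365 ± 46.5 CPM in WT and 274 ± 39.2 CPM in C3-/- tumors, a log2 fold change of -0.42 (SE 0.15) with an unadjusted p of 0.0186 and an adjusted p of 0.96 in edgeR. Of the kidney tubule genes, the deposited table held no row named Umod, Slc34a1 or Kap, and Aqp2 stayed at or below 14 counts.

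Neighbouring tissues carry mesothelium on their surface, and their markers were uneven between tumors. The summed level of 12 acinar genes was 170 to 557 CPM in WT and 41.7 to 1850 CPM in C3-/- tumors, with 10 of 12 genes higher (median 0.79), Ctrb1 at 0.94 and Cela1 at -0.21. C3-/- replicate 1 stood apart, since the sum was 68.1, 44.8 and 41.7 CPM in the other C3-/- tumors, below every WT tumor, and Ctrb1 was at 797 CPM in replicate 1 and 2.02 to 7.22 CPM in the others against 55.7 to 165 CPM in WT. With the acinar level as a covariate, edgeR gave -1.31 for Upk3b, -1.40 for Lrrn4 and -1.08 for Upk1b. Muscle genes summed to 15.4 to 4385 CPM in WT and 23.9 to 3934 CPM in C3-/- tumors, with WT replicate 4 the highest, and Acta1 and Atp2a1 had differences of 0.63 and 0.07. Adipocyte genes summed to 68.5 to 637 CPM and 50.4 to 223 CPM, with WT replicate 2 the highest, 4 of 4 genes tested lower (median -1.18), Fabp4 at -1.33 and Cfd at -0.74. Fabp4 was at 312 CPM in WT replicate 2, 34.3 to 55.5 CPM in the other WT tumors and 28.5 to 74.5 CPM in C3-/- tumors. Liver genes summed to 16.8 to 80.9 CPM and 13.2 to 25.3 CPM, highest in WT replicate 4. Of the 5 liver genes tested 4 were lower and 1 higher in C3-/- tumors (median -0.68), 2 of them at an unadjusted p below 0.05. Alb (albumin), at 35.7 CPM in WT replicate 4, 0.151 to 5.72 CPM in the other WT tumors and 0.063 to 2.07 CPM in C3-/- tumors, differed by -3.88 (SE 1.25), with an unadjusted p of 0.0109 and an adjusted p of 0.96 in edgeR. Fgb (fibrinogen beta) differed by -4.62 (SE 1.41), with an unadjusted p of 0.00809 and an adjusted p of 0.936 in edgeR, and Ttr by -0.12. WT replicate 4 carried most of the Fgb level in WT, at 13.6 CPM against 0.151 to 1.88 CPM in the other WT tumors and 0 to 0.616 CPM in C3-/- tumors. Without WT replicate 4, Upk3b was at -1.32, Lrrn4 at -1.16 and Upk1b at -0.67. Without WT replicate 2, Upk3b was at -1.35, Lrrn4 at -1.09 and Upk1b at -0.83. The peritoneal macrophage list summed to 102 to 147 CPM and 83.8 to 110 CPM, with Gata6 at -0.22. Ccl21a, a chemokine of lymphoid stroma, was at 1.59 ± 0.994 and 0.625 ± 0.344 CPM. WT replicates 2 and 4 were each the highest tumor for 3 of the 6 members. The adipocyte sum was 637 CPM in WT replicate 2, 223 CPM in C3-/- replicate 1 and 109 CPM in WT replicate 4. It was 84.5 CPM in WT replicate 3 and 50.4 to 70.6 CPM in the remaining tumors. The muscle sum was 15.4 CPM in WT replicate 2, 23.9 CPM in C3-/- replicate 2 and 30.7 CPM in WT replicate 3. In the remaining tumors the muscle sum was 1707 to 4385 CPM. The part of attached tissue in the members' levels was not tested.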

How the data were processed

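Tumor RNA was selected on poly-T beads and sequenced as paired reads. The authors deposited read counts per gene on mm39, with FPKM, size-factor-normalized counts (a signal), log2 fold changes and p-values. The study's methods name STAR and HTSeq, and the submitters' processing notes name HISAT2 2.0.5 and DESeq2 1.20.0, so the aligner is unsettled, as is strandedness. The deposited counts entered all tests. The deposited FPKM served to compare levels between genes. The deposited normalized signal, log2 fold changes and p-values were not used.

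Genotypes were compared with edgeR 4.0.16 in R 4.3.3 (filterByExpr with a minimum count of 10, TMM, glmQLFit, glmQLFTest, Benjamini-Hochberg over 16610 genes). Unadjusted p-values named in the text come from this fit unless another tool is named. Single values were tested exactly over 70 assignments of the 8 tumors, and correlations over all 40320 pairings, two-sided, on log2 CPM with a prior count of 2 (scipy 1.17.1). Alternatives used DESeq2 1.42.0, limma 3.58.1 (voom), other size factors and filters, robust fitting, a replicate block, the acinar level as a covariate, and each tumor left out. Tests were tried on simulated data. The labels give no litter or batch, and p-values measure the spread between these tumors. At 3 counts or fewer a gene was treated as at the floor. Counts are read pairs without molecular identifiers.

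The members and marker lists were chosen with earlier results of these data known. Named were the members, C3, genes of the other mesothelial list and the list of 4 simple keratins at an unadjusted p below 0.05 (0 qualified) and Calb2, Muc16, Nkain4, Rspo1, Aldh1a2 and Krt19, the 10 genes most like the members, and the 2 most abundant genes of each other list. A few results these rules cover are not reported here. Prg4, Upk1a, Upk2, Krt5, H2-Aa, H2-Eb1, H2-Ab1, Nphs1, Elavl3, Syt1, Krt7, Krt13, Fgb and Grhl2 were named after their values were seen. No member overlapped another gene of the deposited table, but in GENCODE vM39 all 7 overlap another gene, 6 of them one on the other strand, whose reads could not be told apart if strand was not used. Lrrn4 alone overlaps a protein-coding gene, Crls1, which shares 3055 bases with it on the other strand.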

Additional observations from a re-analysis of the deposited data

Results flagged for a closer look

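In 6 of 44 groups of 4 tumors, 1 tumor stood apart from the rest by Dixon's test, which by chance happens in about 1 of 20 groups. Members account for 4 of these. Msln was low in C3-/- replicate 4, at 8.45 log2 CPM against 8.98 to 9.07 in the other C3-/- tumors. Wt1 was low in WT replicate 1, at 2.03 against 3.78 to 3.95. Gpm6a was low in WT replicate 1, at -0.568 against 1.2 to 1.48, and in C3-/- replicate 3, at -1.72 against 0.368 to 0.603. Of the tissue lists, the mean log2 CPM of acinar genes was high in C3-/- replicate 1, at 6.4 against -0.894 to -0.0684. That of muscle genes was low in C3-/- replicate 2, at -1.22 against 6.68 to 8.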

How the results depend on the processing

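Under the alternatives, 200 recomputed values kept their direction and their side of the threshold, or moved by less than the set limits, 3 moved further and 2 reversed. DESeq2 called 16 genes in place of 0, none a member, and leaving out 1 tumor at a time gave 0 to 4 genes (4 without C3-/- replicate 1). Leaving out 1 tumor at a time gave 6 to 7 members lower in C3-/- tumors and 2 to 5 at an unadjusted p below 0.05 (5 without WT replicate 1, which added Wt1 and Gpm6a). The log2 fold change of Msln ran from -0.13 to 0.05 and reversed to 0.05 without C3-/- replicate 4. The r of Msln with Gpm6a reversed to -0.02 within genotypes. The cause was not tested. Ranges without 1 tumor were -1.75 to -1.26 for Upk3b, -1.48 to -1.09 for Lrrn4, -1.19 to -0.67 for Upk1b, -1.27 to -0.63 for Gpm6a, -0.88 to -0.43 for Wt1 and -0.67 to -0.33 for Bnc1. Over all 17 fits the unadjusted p was below 0.05 in 17 for Upk3b and Lrrn4 and in 12 for Upk1b. The adjusted p ran from 0.104 to 1 for Upk3b over the alternatives. Correlations of deviations between same-numbered tumors of the 2 genotypes were mixed, at -0.03, 0.491, -0.356 and 0.594. Different-numbered tumors were not compared in this way, so whether replicate numbers pair the tumors was not tested. With a replicate block, 0 genes were called and Upk3b was at -1.46. With at least 10 counts in every tumor Gpm6a could not be tested. With 13 to 114 counts per tumor for Upk3b and Lrrn4, counting error limits single values.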

Other observations

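The genes most like the mesothelial genes were sought among all genes tested, by Pearson's r over the 8 tumors with the mean standardized log2 CPM of the 6 members other than Msln. Cldn10, a claudin of tight junctions, came first (r = 0.971). It was at 1.4 ± 0.521 CPM in WT and 0.575 ± 0.368 CPM in C3-/- tumors (SD, n = 4 each). The difference was -1.26 on the log2 scale (SE 0.51, edgeR adjusted p = 0.971). Armh4 (0.955), the lncRNA ENSMUSG00000121069 (0.954), Afg3l2, a mitochondrial protease (0.941), and the lncRNA ENSMUSG00000121137 (0.934) were also among the first 10. So were Abcb1b (0.929), a drug efflux transporter, Plau (0.926), which encodes urokinase, Slc43a3 (0.926) and the lncRNA Gm4610 (0.925). Without WT replicate 1, a choice made after seeing the data, 6 of the 10 were again among the first 10. These genes were picked from 16610 for their likeness, so their r describes these 8 tumors, and Msln had r = -0.04 with the same mean.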
